A study of Rattus norvegicus with 30 samples.

Results

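Apolipoproteins are the protein part of the particles that carry fat and cholesterol in blood, and hepatocytes make most of them. The 9 genes described here, Apoa1, Apoa2, Apoa4, Apoa5, Apob, Apoc1, Apoc3, Apoe and Apom, were chosen by name from the gene annotation of the array platform. They had 11 probe sets of 31042 non-control probe sets, and all 9 were among the 10528 genes tested. Primary hepatocytes of male Sprague Dawley rats, bought frozen and cultured on collagen under Matrigel, were exposed on day 3 of culture to dioctyl phthalate, a plasticiser, at 250 or 1000 µM. Control wells received the vehicle alone, and all wells held 1% DMSO. RNA was taken after 24 or 48 h from 5 wells per dose and time, which gave 30 arrays in 6 groups. The labels do not say which isomer of dioctyl phthalate was used, nor how many animals or vials the wells came from, so the errors describe differences between wells.

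A very-low-density lipoprotein is built around 1 copy of Apob, the large structural protein, and then takes up smaller exchangeable apolipoproteins. In plasma, Apoa5 helps lipoprotein lipase to break down triglyceride and Apoc3 hinders it, and Apoe is the ligand for uptake by liver receptors. Apoa1 and Apoa2 are the main structural proteins of high-density lipoprotein (HDL). Apoa4 rides on both triglyceride-rich particles and HDL, Apoc1 inhibits lipid transfer and uptake, and Apom carries sphingosine-1-phosphate on HDL. Phthalate diesters are known in rodent liver as activators, through their monoesters, of the fatty acid receptor PPARα, and several apolipoprotein genes are known as genes that respond to activators of this receptor.

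In the RefSeq annotation of the rat genome (build GRCr8), Apoa1, Apoc3, Apoa4 and Apoa5 stand next to each other in this order on chromosome 8. Apoc1 and Apoe are neighbours on chromosome 1. Apob lies on chromosome 6, Apoa2 on chromosome 13 and Apom on chromosome 20. The windows of the neighbours Apoa5 and Apoa4 are shown because the first of these genes had the largest response to the compound and the second passed no test. Each is the 250 bases before the RefSeq start, on the plus strand, chr8:55457621-55457870 for Apoa5 and chr8:55435529-55435778 for Apoa4, with matches to the searched motifs in capitals.
Apoa5: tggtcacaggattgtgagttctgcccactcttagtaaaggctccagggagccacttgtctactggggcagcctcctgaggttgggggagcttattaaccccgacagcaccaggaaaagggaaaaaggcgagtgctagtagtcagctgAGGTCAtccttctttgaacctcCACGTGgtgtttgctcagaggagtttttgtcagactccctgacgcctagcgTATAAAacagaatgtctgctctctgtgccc
Apoa4: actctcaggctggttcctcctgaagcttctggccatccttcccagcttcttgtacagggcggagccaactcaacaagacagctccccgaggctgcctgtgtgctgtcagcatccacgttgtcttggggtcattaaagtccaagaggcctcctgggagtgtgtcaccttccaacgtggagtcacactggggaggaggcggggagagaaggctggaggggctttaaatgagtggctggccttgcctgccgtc
The motifs searched, on both strands, were the nuclear receptor half-site AGGTCA, its direct repeat AGGTCANAGGTCA, CAAAGTCCA, the TATA box TATAAA, the CCAAT box CCAAT and the E box CACGTG, of which only the first 2 overlap each other. The Apoa5 window holds AGGTCA beginning 103 bases before the start, CACGTG beginning 81 bases before it and TATAAA beginning 30 bases before it, while the Apoa4 window holds none of these letters. Of 33469 such windows over all genes, 14.1% hold AGGTCA, 5.59% hold CACGTG, 12.9% hold TATAAA, 34.0% hold CCAAT, 0.338% hold CAAAGTCCA and 0.0508% hold the direct repeat. A second Apoa5 start in the table lies 154 bases further on, and its window overlaps this one. The table held 9 windows for 5 of the 9 genes (Apoa4, Apoa5, Apoc1, Apoe and Apom), and those of Apoc1, Apoe and Apom held no searched motif other than CCAAT.

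The 30 arrays had been scaled alike, with a trimmed mean signal of 1501 on each, and their median log2 signals spanned 0.34. RNA integrity was read from the beta-actin 3'/5' log2 ratio, in which broken or incompletely copied RNA gives higher values. Vehicle wells at 48 h had a mean ratio of 1.72 ± 0.494 (SD, n = 5), against means of 1.14 to 1.30 in the other 5 groups. In vehicle at 48 h, replicates 1, 2, 3 and 5 had ratios of 1.66 to 2.44 and replicate 4 had 1.04. The ratio was higher in that group than in vehicle at 24 h by 0.57 (exact two-sided permutation p = 0.0397, adjusted p = 0.143 over 18 tests). A second control, the Gapdh 3'/5' log2 ratio, had a mean of 0.219 in vehicle at 48 h and means of 0.123 to 0.147 in the other groups. By the same test p was 0.0397 against vehicle at 24 h, 0.0238 against 250 µM at 48 h and 0.0397 against 1000 µM at 48 h. The adjusted p was 0.143 in each. Replicate 4 was again the lowest of its group (0.130). The changes of Apoa5, Apoa2 and Apob against 48 h vehicle are therefore given also without the 4 arrays of raised actin ratio or with the actin ratio as a covariate. So is the change of Apob over time in vehicle. Leaving out the 4 arrays leaves 1 vehicle array at 48 h, which is assumed to vary like the other groups. Other changes that use these arrays, among them those of named list genes, are from all 30 arrays unless an alternative is named. Of 10 hepatocyte markers 9 were on the array and all 9 passed the low-signal limit, among them Alb with a mean signal of 64120. In bulk RNA, fewer cells of a type and less RNA per cell cannot be told apart.

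Apoa5 was the member that fell clearly under dioctyl phthalate. Its signals in vehicle at 24 h were 9930, 11444, 12999, 12624 and 14233. At 250 µM and 24 h they were 6311, 6018, 6058, 6251 and 6098, and at 1000 µM and 24 h 6118, 6428, 6485, 6369 and 6652. All 10 exposed wells lay below all 5 vehicle wells, and the exposed wells were close to each other. After 48 h the vehicle signals were 13005, 12689, 12701, 14926 and 13053. Those at 250 µM were 4535, 4746, 4382, 4200 and 4902, and those at 1000 µM were 4380, 5517, 5789, 5024 and 5098. Again no exposed well reached a vehicle well, and the doses overlapped each other.

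At 24 h Apoa5 fell to 50.6% of its vehicle level at 250 µM (95% interval 45.6% to 56.0%; log2 change -0.98 ± 0.07, SE, n = 5, limma adjusted p = 1.2e-12) and to 52.7% at 1000 µM (47.6% to 58.4%; -0.92 ± 0.07, adjusted p = 6.5e-12). At 48 h it fell to 34.3% at 250 µM (31.0% to 38.0%; -1.54 ± 0.07, adjusted p = 6.4e-18) and to 38.8% at 1000 µM (35.0% to 43.0%; -1.37 ± 0.07, adjusted p = 2.4e-16). The falls against 48 h vehicle were -1.71 ± 0.13 and -1.54 ± 0.13 without the 4 arrays of raised actin ratio. A covariate for that ratio gave -1.64 ± 0.09 and -1.44 ± 0.08. Replicate 4, the vehicle array of low actin ratio, held the highest Apoa5 signal of its group. The fall was thus as large without those arrays.

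The fall was deeper at 48 than at 24 h. The difference between the effects at the 2 times, tested as an interaction, was -0.56 ± 0.10 at 250 µM (limma adjusted p = 8.7e-04) and -0.44 ± 0.10 at 1000 µM (adjusted p = 0.0274). Apoa5 was the only 1 of the 9 genes with such a call at either dose, against 8.36% of all genes tested at 250 µM and 0.969% at 1000 µM. In vehicle alone Apoa5 did not pass the test between 24 and 48 h (0.12 ± 0.07, adjusted p = 0.21), whereas it fell over the same time at 250 µM (-0.44 ± 0.07, adjusted p = 4.9e-05) and at 1000 µM (-0.32 ± 0.07, adjusted p = 0.0019). The call at 1000 µM was lost when array medians were centred (-0.51), with robust variances and no trend (-0.44), in a fit of the compared groups alone (-0.44) and without the 4 vehicle arrays (-0.61). It was also lost without any 1 of 3 single arrays, which were replicate 2 of vehicle at 24 h (-0.42), replicate 5 of 1000 µM at 24 h (-0.43) and replicate 1 of 1000 µM at 48 h (-0.39).

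**Figure D1:**
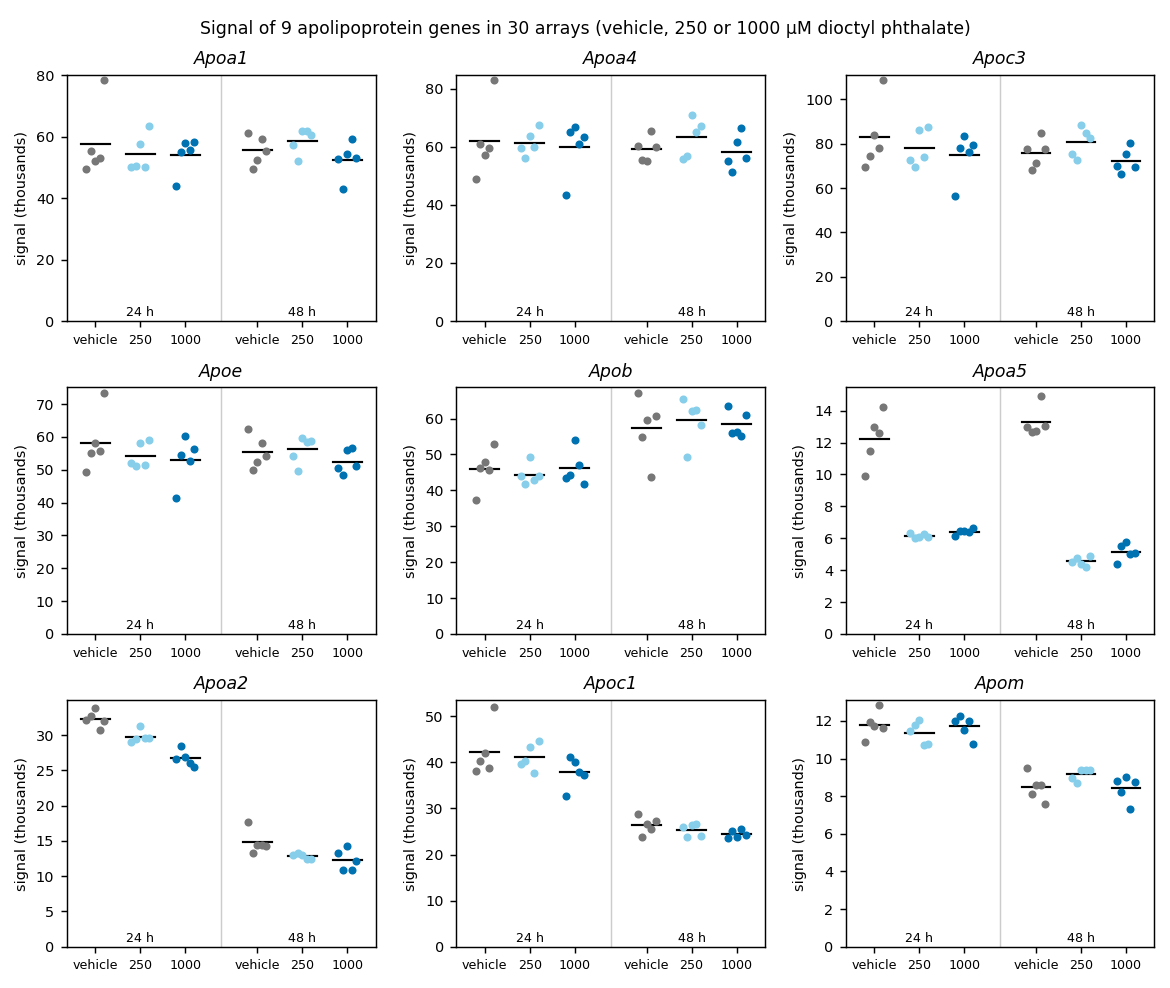
Signal of the 9 genes divided by 1000 (linear y axis from 0) in each of 30 arrays, by dose in µM and time; points are single wells, set side by side only to separate them, and bars are group means. Apoa5 lies between 9930 and 14926 in vehicle and between 4200 and 6652 with the compound, Apoa2, Apoc1 and Apom are lower at 48 than at 24 h, and the bright genes of the top row overlap between all groups.

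Apoa2 fell slightly. Its signals were 30655 to 33784 in vehicle at 24 h (median 32132), 28996 to 31272 at 250 µM (median 29578) and 25501 to 28488 at 1000 µM (median 26562). At 1000 µM no well reached the vehicle range, while the wells at 250 µM overlapped it. The log2 change was -0.27 ± 0.06 at 1000 µM (limma adjusted p = 0.0018) and -0.11 ± 0.06 at 250 µM (adjusted p = 0.25). After 48 h the signals were 13285 to 17680 in vehicle (median 14419), 12374 to 13288 at 250 µM (median 12964) and 10832 to 14249 at 1000 µM (median 12109). The ranges now overlapped, with replicate 1 of vehicle, the array with the highest actin ratio, at 17680 and the other 4 vehicle arrays no higher than 14458.

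At 48 h Apoa2 changed by -0.20 ± 0.06 at 250 µM (adjusted p = 0.0106) and by -0.27 ± 0.06 at 1000 µM (adjusted p = 0.0014). Without replicate 1 of vehicle (-0.14), with the actin ratio as covariate (-0.10) and without the 4 arrays of raised actin ratio (-0.18), the call at 250 µM was lost. Leaving out the 4 arrays also ended the call at 1000 µM, with a change of -0.24. Centring array medians ended the calls at 1000 µM and 24 h (-0.24) and at 250 µM and 48 h (-0.20).

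The other 7 genes did not pass the test at either dose or time. Their log2 changes lay between -0.16 and 0.12 over all 4 comparisons with vehicle. Some were called at 48 h under alternatives: Apob at both doses with the actin ratio as covariate (0.36 and 0.26) or without the 4 vehicle arrays, Apoc1 at both doses after quantile normalization (-0.19 and -0.17), Apom at 250 µM without vehicle replicate 1 (0.16) or with replicate 5 as the only vehicle array (0.27), and Apoe at 250 µM with the level of the 100 brightest other probe sets as covariate (-0.06). Of these, Apoc1 at 1000 µM and 24 h was the one whose 95% interval did not reach 0 (-0.16 ± 0.07, limma adjusted p = 0.12). For Apob, whose product is the backbone of the secreted particle, the changes were -0.05 ± 0.09, 0.01 ± 0.09, 0.06 ± 0.09 and 0.04 ± 0.09 at 250 µM and 1000 µM after 24 h and then after 48 h. Apoc3, the lipase inhibitor encoded beside Apoa4, had -0.08 ± 0.10, -0.15 ± 0.10, 0.09 ± 0.10 and -0.07 ± 0.10 in the same order. The 95% interval of Apoc3 at 1000 µM and 24 h reached from -0.35 to 0.05, and that of Apoa1 at 250 µM and 48 h from -0.12 to 0.28, and changes within these intervals cannot be told from 0 here.

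Counted over the 9 genes, 1 changed at 250 µM and 24 h, against 19.3% of all genes tested, and 2 changed at 1000 µM and 24 h, against 19.5%. At 48 h 2 changed at 250 µM, against 41.2% of all genes, and 2 at 1000 µM, against 29.7%. All of these were falls. The median log2 change of the 9 genes was -0.07, -0.13, 0.06 and -0.08 in the 4 comparisons, and that of all genes was -0.03, -0.03, -0.07 and -0.04. The doses of each time share their vehicle arrays, so the pair of comparisons is not independent.

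**Figure D2:**
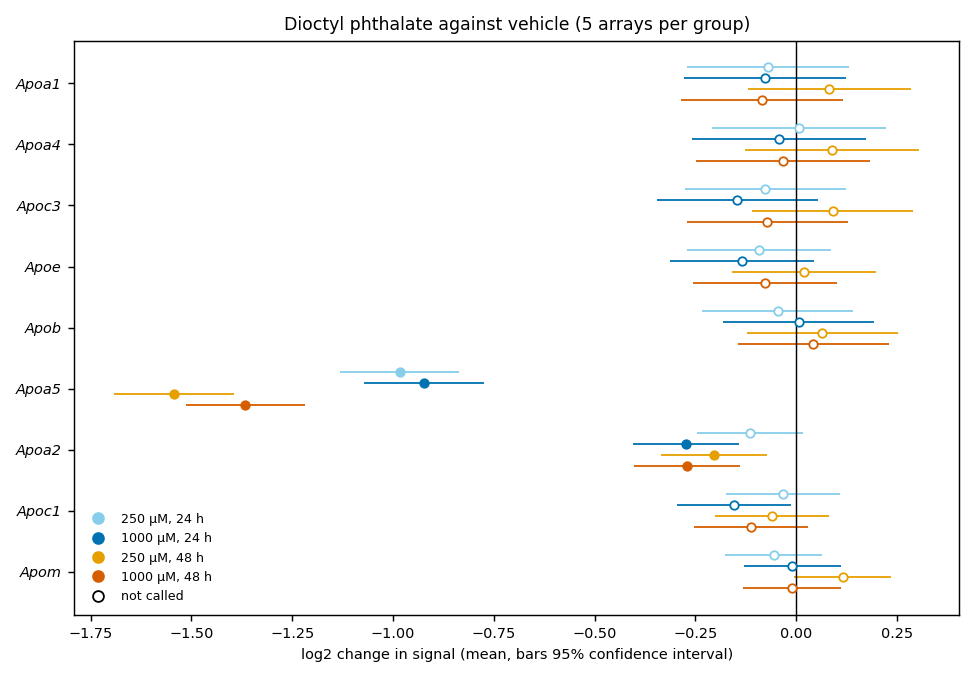
Log2 change of the 9 genes against vehicle at the same time (x axis, points are means over 5 arrays per group, bars the 95% confidence interval, filled where the adjusted p was under 0.05). Apoa5 lies between -1.54 and -0.92 in all 4 comparisons and Apoa2 between -0.27 and -0.11, and every interval of the other 7 genes but 1, that of Apoc1 at 1000 µM and 24 h, crosses 0.

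Between the doses, 0 of 9 genes differed at 24 h, against 0.0190% of all genes tested, and 0 at 48 h, against 0.0665% (limma). At an unadjusted p under 0.05 there was 1 member at 24 h, Apoa2, and there were 2 at 48 h, Apoa5 and Apom. Apoa5 was higher at 1000 than at 250 µM after 48 h by 0.18 ± 0.07 (95% interval 0.03 to 0.32, unadjusted p = 0.021, adjusted p = 0.32). Apoa2 was lower at the higher dose after 24 h by a log2 difference of -0.16 ± 0.06 (95% interval -0.29 to -0.03, adjusted p = 1.00), although the wells of the 2 doses did not overlap. These intervals do not show that the doses act alike.

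Several members differed between the culture times. In vehicle 4 of 9 genes differed between 48 and 24 h, against 28.1% of all genes tested, and 5 did so at 250 µM, against 13.4%, and at 1000 µM, against 18%. With the actin ratio as covariate 7.11% of all genes changed over time in vehicle, and Apob was no longer called there. The fifth gene in the exposed cultures was Apoa5.

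Apoa2, a structural protein of HDL, went from 30655 to 33784 in vehicle at 24 h to 13285 to 17680 at 48 h, with no overlap. The log2 change was -1.13 ± 0.06 in vehicle (limma adjusted p = 6.0e-15), -1.22 ± 0.06 at 250 µM and -1.13 ± 0.06 at 1000 µM. Apoc1 had 38139, 40279, 42056, 38807 and 52054 in vehicle at 24 h and 28894, 23780, 26608, 25478 and 27391 at 48 h. It too was lower in every 48 h well, with changes of -0.67 ± 0.07 (adjusted p = 1.6e-08), -0.70 ± 0.07 and -0.63 ± 0.07. Apom had 10879, 11962, 11708, 12821 and 11614 in vehicle at 24 h and 9480, 8123, 8609, 8620 and 7581 at 48 h, again without overlap. It fell by 0.48 ± 0.06 in vehicle (adjusted p = 4.9e-07), by 0.31 ± 0.06 at 250 µM and by 0.48 ± 0.06 at 1000 µM. Centring array medians ended the call of Apom at 250 µM (-0.26).

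Apob moved the other way. Its bright probe set had 37340, 46301, 47990, 45589 and 52816 in vehicle at 24 h and 67202, 54837, 59698, 43643 and 60855 at 48 h. The ranges overlapped through replicate 4 at 48 h, the vehicle array of low actin ratio. The log2 change was 0.31 ± 0.09 in vehicle (limma adjusted p = 0.0111), 0.42 ± 0.09 at 250 µM (adjusted p = 0.0015) and 0.35 ± 0.09 at 1000 µM (adjusted p = 0.0074). At 250 µM the signals went from 41834 to 49194 at 24 h (median 43988) to 49279 to 65434 at 48 h (median 62246), and at 1000 µM from 41841 to 54152 (median 44202) to 55274 to 63573 (median 56138), without overlap in either.

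The values of Apob in vehicle rest on the arrays of raised actin ratio. In a fit of the compared groups alone its change over time in vehicle stayed at 0.31 but was no longer called. With the ratio as a covariate the change in vehicle was 0.01 ± 0.08, without the 4 arrays it was -0.07 ± 0.14, and without replicate 1 at 48 h it was 0.25 and no longer called. Under the same settings Apob was higher with the compound than in vehicle at 48 h, by 0.36 ± 0.08 and 0.44 ± 0.14 at 250 µM and by 0.26 ± 0.08 and 0.42 ± 0.14 at 1000 µM. With each of vehicle replicates 1, 2, 3 and 5 as the only vehicle array, these changes at 48 h were -0.18 to 0.11 at 250 µM and -0.20 to 0.09 at 1000 µM. The rises over time at 250 and 1000 µM do not use vehicle arrays, and centring array medians ended the call at 1000 µM (0.34). A second, dim probe set of Apob, with signals of 176 to 569, went against the bright one over time, at -0.43 ± 0.23, -0.25 ± 0.23 and -0.65 ± 0.23 in vehicle, at 250 µM and at 1000 µM, without passing the test. When the log2 values of both probe sets were averaged, the changes of Apob over time were -0.06, 0.08 and -0.15 and none passed the test.

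The remaining 4 genes, Apoa1, Apoa4, Apoc3 and Apoe, did not pass the test over time under any exposure, with log2 changes of -0.11 to 0.11. A second Apoe probe set, with signals of 15 to 235, lay under the low-signal limit of 234 on nearly every array and was not tested. Markers of enterocytes, the other main source of Apoa4, Apob and Apoa1 in the body, had a summed signal of 1079 to 1570 at 24 h and 1637 to 2464 at 48 h over 3 of 4 listed genes on the array. Of these, Alpi had a mean signal of 104, under the limit. The part of such cells in the values was not tested.

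**Figure D3:**
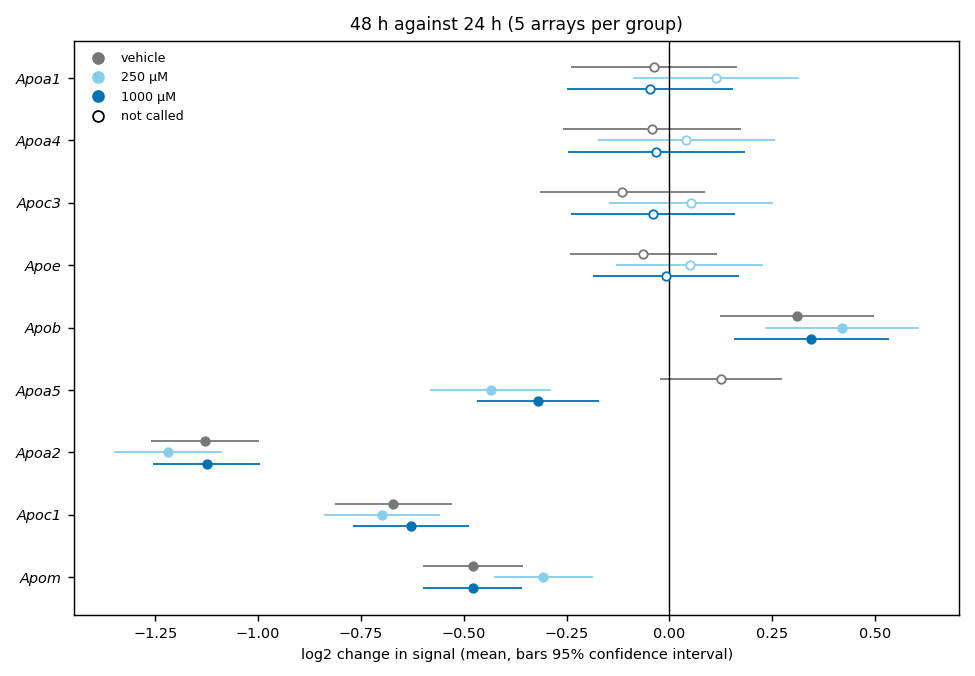
Log2 change of the 9 genes from 24 to 48 h in vehicle, at 250 µM and at 1000 µM (x axis, points are means over 5 arrays per group, bars the 95% confidence interval, filled where the adjusted p was under 0.05). Apoa2, Apoc1 and Apom fell under each exposure, while the 3 values of Apoa5 lie at 0.12, -0.44 and -0.32. Apob was higher at 48 h under each exposure by its bright probe set, but its change in vehicle was 0.01 with the actin ratio as covariate.

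Because hepatocytes make so much apolipoprotein RNA, the signals were checked for a ceiling. Apoc3 ranked between 2 and 9 of 31042 probe sets on the 30 arrays, at 84.2% to 97.4% of each array's highest signal. The bright Apob probe set ranked from 20 to 230, Apoa4 from 26 to 105, Apoa1 from 40 to 137 and Apoe from 47 to 130. Apoc1 had a median rank of 341 and Apoa2 of 631. Apom, with a median rank of 1555, and Apoa5, with 2464, lay far below the top of the range. The 2 members that changed with the compound were thus not among the 6 brightest.

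The share of probe sets called dropped steeply at the top of the range. At 1000 µM and 48 h it was 50.0% of the 532 probe sets with a mean log2 signal of 14 to 15, 33.0% of the 176 between 15 and 15.5, 15.4% of the 123 between 15.5 and 16, and 4.17% of the 24 above 16. At 250 µM and 48 h the shares of the same classes were 65.6%, 50.6%, 20.3% and 4.17%. The median SD within groups went up meanwhile, from 0.0909 between 14 and 15 to 0.145 above 16, and the median size of a change at 1000 µM and 48 h went from 0.16 to 0.06. Apoa1, Apoa4, Apoe and Apob lie in the class from 15.5 to 16 and Apoc3 in the class above 16. Large changes were still recorded in the former class, up to 1.33 at 1000 µM and 48 h.

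Genes with both a bright probe set (mean log2 over 15) and a dimmer one (10 to 14) gave a second reading. At 250 µM and 48 h the dimmer probe set had the larger change in 18 of 19 such genes, with a median size of 0.38 against 0.20, and at 1000 µM and 48 h in 15 of 16, with 0.47 against 0.23. These genes were taken because the dimmer probe set was called, which favours it. None of the 5 brightest members had a dimmer probe set of that range. Whether changes of Apoa1, Apoa4, Apob, Apoc3 or Apoe were compressed in this way was not tested, and a value near 0 does not show that their RNA stayed level.

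**Figure D4:**
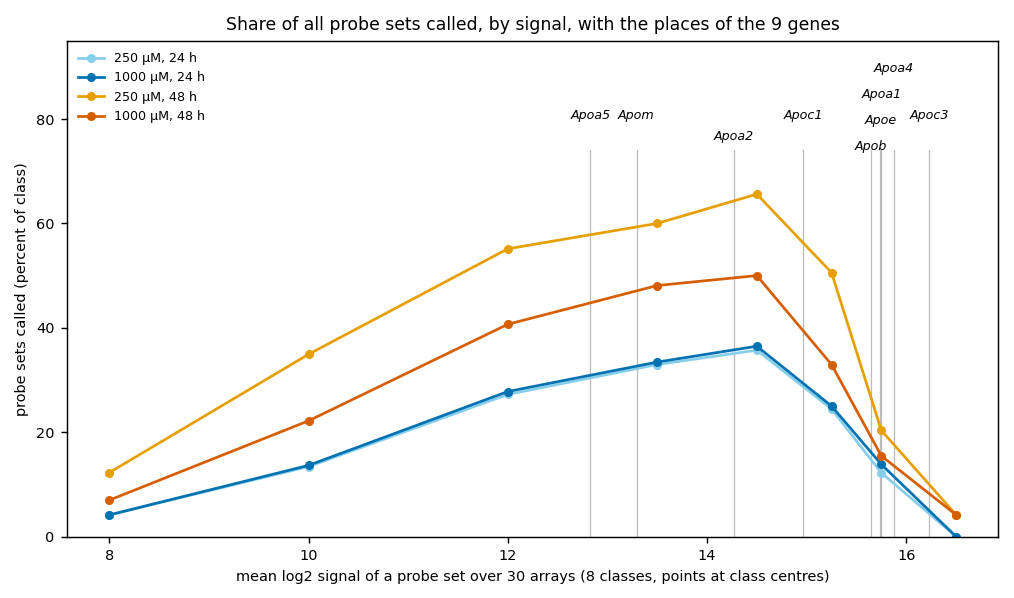
Share of all probe sets called against vehicle (y axis, percent) by mean log2 signal over 30 arrays (x axis, 8 classes), for each dose and time, with vertical lines at the mean log2 signal of the 9 genes. The share is highest between 14 and 15 (50.0% at 1000 µM and 48 h) and 4.17% or less above 16, where Apoc3 lies.

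The bright members also rose and fell together from well to well. Apoa1, Apoa4, Apoc3 and Apoe had Pearson correlations of 0.89 to 0.95 with each other over the 30 arrays, and 0.90 to 0.95 after group means were taken out. They correlated as closely, at 0.90 to 0.98 within groups, with the level (median log2 signal) of the 100 brightest other probe sets of the same array. These values share an array and are given as a description. Replicate 5 of vehicle at 24 h had the highest signal of any array, 116604, and the highest value of its group for 7 of the 9 genes. Replicate 1 of that group had its lowest value for 8 of the 9 genes. Replicate 1 of 1000 µM at 24 h had the lowest top signal, 65603, and the lowest value of its group for 6.

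With the level of those 100 probe sets as a covariate, an alternative added after the data were seen, the standard error of Apoc3 went from 0.0980 to 0.0311 and that of Apoe from 0.0876 to 0.0252. Apoe then fell at 250 µM and 48 h by 0.06 ± 0.03 and rose from 24 to 48 h at 1000 µM by 0.09 ± 0.03, and Apoa4 rose from 24 to 48 h in vehicle by 0.11 ± 0.04. All 3 values had the opposite sign without the covariate. Apoa5 had a within-group correlation of 0.45 with that level, and its standard error went from 0.0728 to 0.0683.

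A list of bright genes, mostly of plasma proteins, was set beside the members. Of 13 listed, 12 were tested, and at 1000 µM and 48 h 1 was higher and 5 were lower, against 11.5% and 18.3% of all genes, while at 250 µM and 48 h 1 was higher and 3 were lower, against 15.2% and 26%. The 1 that rose was Fabp1, an intracellular fatty acid-binding protein and not a plasma protein, by 2.36 ± 0.05 at 1000 µM and 48 h, at a mean log2 signal of 14.34 that is below those of the 5 brightest members. Ahsg, the plasma protein fetuin-A, fell by 0.74 ± 0.07 at a mean of 15.47, also below them. Fgb, a fibrinogen chain, fell by 0.55 ± 0.07 at a mean of 15.83, which lies between those of Apoa1 (15.75) and Apoa4 (15.88). Alb, Ttr, Rbp4, Hp, Ambp and Apoh did not pass the test there, with changes of -0.17 to -0.01. At 250 µM and 48 h 7 genes of the list were called after quantile normalization, against 38.4% of all genes. With the level of the 100 brightest other probe sets as covariate 8 were called, against 40.2% of all genes.

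Over all 30 arrays the members fell into few patterns, given as correlations that share arrays and carry no test. Apoa2, Apoc1 and Apom correlated at 0.87 to 0.95 with each other and at -0.74 to -0.63 with Apob. Within groups those values were 0.04 to 0.58, so the likeness lay mostly between groups. The genes most like Apoa5 were Steap4, a metalloreductase (0.970), Kng2l1, of the kininogen family (0.968), and B3galnt1, a glycosyltransferase (0.965). Those most like Apoa2 were Serpina3c (0.973), Rup2 (0.972) and Wfdc21 (0.970), and Apom was most like Pon1, an HDL-bound esterase (0.934). Apoc3 was most like Mgst1, a microsomal glutathione transferase (0.972), and Apob most like Elovl5, a fatty acid elongase (0.858).

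Of the other apolipoproteins and HDL-bound proteins, 12 of 17 listed genes were tested. At 250 µM and 24 h 2 were higher and 3 lower, against 8.31% and 11% of all genes, and at 1000 µM and 24 h 3 and 3, against 8.28% and 11.2%. At 48 h 5 were higher and 2 lower at 250 µM, against 15.2% and 26% of all genes, and 5 and 3 at 1000 µM, against 11.5% and 18.3%, with list medians of 0.10 and -0.03 against -0.07 and -0.04 for all genes. Apoc4, a minor apolipoprotein encoded beside Apoc1, fell in all 4 comparisons (-0.35 ± 0.07, -0.29 ± 0.07, -0.60 ± 0.07 and -0.53 ± 0.07), and so did Pon3, an HDL-bound lactonase (-0.50 ± 0.07, -0.46 ± 0.07, -0.73 ± 0.07 and -0.68 ± 0.07). Apol9a, of the apolipoprotein L family, rose by 0.97 to 1.44. Apon, apolipoprotein N, rose at 48 h (0.80 ± 0.10 and 0.72 ± 0.10) and had 0.12 ± 0.10 and 0.17 ± 0.10 at 24 h. Apool, named as an apolipoprotein but known as a mitochondrial inner-membrane protein, was among those that rose (0.30 to 0.64). Without the 4 vehicle arrays of raised actin ratio, which leaves 1 vehicle array at 48 h, fewer genes of the list were called at that time. The same held for all genes tested.

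Genes of particle assembly and secretion included some that rose in all 4 comparisons. Mttp, which loads lipid onto Apob, rose by 0.83 ± 0.07 and 0.80 ± 0.07 at 24 h and by 0.71 ± 0.07 and 0.77 ± 0.07 at 48 h. Sar1b, a GTPase of the vesicles that carry such particles, rose by 0.66 ± 0.06, 0.62 ± 0.06, 1.02 ± 0.06 and 0.82 ± 0.06. A1cf, the partner of the enzyme that edits Apob RNA, rose at 48 h (0.68 ± 0.14 and 0.57 ± 0.14), and Erlin2, an endoplasmic reticulum membrane protein, fell by 0.16 to 0.29. Over 16 tested genes of 18 listed, 3 were higher and 5 lower at 250 µM and 24 h (8.31% and 11% of all genes), and 3 and 2 at 1000 µM and 24 h (8.28% and 11.2%). At 48 h 6 were higher and 2 lower at 250 µM (15.2% and 26% of all genes), and 4 and 3 at 1000 µM (11.5% and 18.3%). Their medians of -0.06, -0.05, 0.05 and 0.06 stood beside -0.03, -0.03, -0.07 and -0.04 for all genes. Centring array medians left 3, 2 and 5 genes called in the first 3 comparisons, where 12.7%, 12.3% and 32.8% of all genes were then called. In the first comparison 5 were called without any 1 of 5 single arrays (replicates 1 and 2 of vehicle, or 1, 3 and 5 of 250 µM).

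Among genes of lipases and remodelling, 9 of 13 listed were tested. Angptl4, a secreted inhibitor of lipoprotein lipase, rose by 1.55 ± 0.06, 1.54 ± 0.06, 1.35 ± 0.06 and 1.26 ± 0.06 at 250 and 1000 µM after 24 h and then after 48 h. Angptl8, which acts on the same lipase, rose by 1.07 to 1.23. Lcat, the enzyme that Apoa1 activates on HDL, fell by 0.54 ± 0.08, 0.61 ± 0.08, 0.52 ± 0.08 and 0.54 ± 0.08. Plin2, a lipid droplet coat protein, rose by 0.27 to 0.44. In all, 3 genes were higher and 1 lower at each dose at 24 h, against 8.31% and 11% of all genes at 250 µM and 8.28% and 11.2% at 1000 µM. At 48 h 4 were higher and 2 lower at 250 µM, against 15.2% and 26%, and 4 and 1 at 1000 µM, against 11.5% and 18.3%.

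Receptors and sterol exporters had 9 tested genes of 15 listed. Abca1, which hands cholesterol to Apoa1, fell by 0.82 ± 0.11, 0.73 ± 0.11, 0.83 ± 0.11 and 0.77 ± 0.11. Cd36, a fatty acid and lipoprotein receptor, rose by 0.55 ± 0.15, 0.70 ± 0.15, 1.12 ± 0.15 and 1.10 ± 0.15. Lsr, a receptor for triglyceride-rich particles, fell by 0.26 to 0.62, and Vldlr, a receptor that binds Apoe, rose in 3 of 4 comparisons (0.69 ± 0.11, 0.56 ± 0.11 and 0.45 ± 0.11) with 0.20 ± 0.11 at 250 µM and 48 h. The counts were 4 higher and 2 lower at each dose at 24 h, where 8.31% and 11% of all genes were so at 250 µM and 8.28% and 11.2% at 1000 µM. They were 3 and 3 at 250 µM and 48 h (15.2% and 26% of all genes), and 4 and 3 at 1000 µM and 48 h (11.5% and 18.3%). Without the 4 vehicle arrays fewer genes of the list were called at 1000 µM and 48 h, and so were fewer of all genes.

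Of 23 listed transcription factors known to act on apolipoprotein genes 19 were tested. Creb3l3, known from mouse liver as an activator of Apoa4 and Apoa5, rose by 1.13 ± 0.07, 1.06 ± 0.07, 0.91 ± 0.07 and 0.76 ± 0.07. Nr1h4, the bile acid receptor, rose by 0.81 ± 0.07, 0.69 ± 0.07, 0.70 ± 0.07 and 0.61 ± 0.07. Cebpa, a liver-enriched factor, fell at 24 h (-0.35 ± 0.07 and -0.47 ± 0.07) and had 0.09 ± 0.07 and 0.14 ± 0.07 at 48 h. Srebf2, the activator of sterol synthesis, fell at 48 h (-0.47 ± 0.09 and -0.26 ± 0.09). At 24 h 2 were higher and 3 lower at 250 µM, and 2 and 2 at 1000 µM, while 19.3% and 19.5% of all genes changed. At 48 h 2 were higher and 5 lower at 250 µM, and 4 and 1 at 1000 µM, while 41.2% and 29.7% of all genes changed. Once the actin ratio was a covariate 3 were called at 250 µM and 48 h, against 26.4% of all genes in that fit. Leaving out the 4 vehicle arrays also gave fewer calls there, in the list and over all genes. With probe sets of a gene averaged 8 were called at 1000 µM and 48 h.

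**Figure D5:**
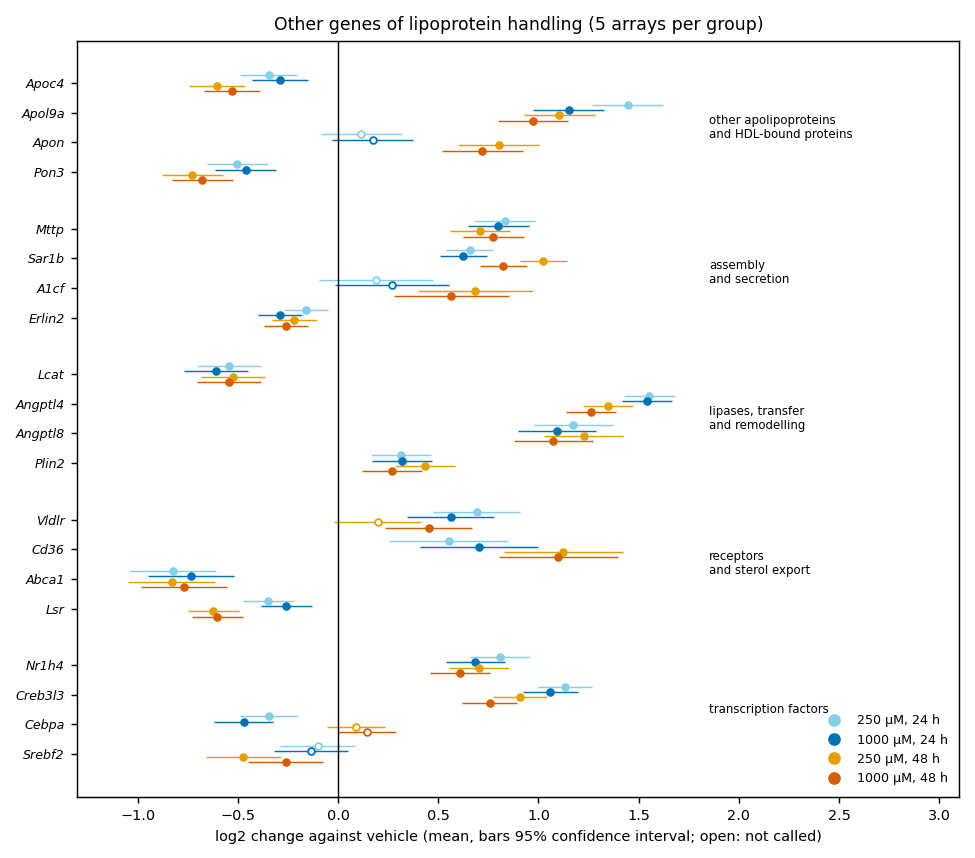
Log2 change against vehicle of 20 other genes, the 4 of smallest p in each of 5 lists (x axis, points are means over 5 arrays per group, bars the 95% confidence interval, open where not called). Angptl4 (1.26 to 1.55), Apol9a (0.97 to 1.44) and Angptl8 (1.07 to 1.23) lie to the right, and Abca1 (-0.83 to -0.73), Pon3 (-0.73 to -0.46) and Lcat (-0.61 to -0.52) to the left.

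Markers of other cell types are given as summed signals, of which that of the stellate cell list was lower with the compound at both times. The summed signal of 10 stellate cell and myofibroblast markers was 10823 to 16105 in vehicle, 7876 to 8609 at 250 µM and 7704 to 8851 at 1000 µM at 24 h, and 16182 to 17188, 7368 to 8504 and 7902 to 9397 at 48 h. Vim, an intermediate filament gene, had a mean signal of 6572 and made up the largest part. Of the 6 tested genes of this list, 0 were higher and 2 lower at each dose at 24 h. Of all genes 8.31% and 11% were so at 250 µM, and 8.28% and 11.2% at 1000 µM. At 48 h 1 was higher and 1 lower at 250 µM (15.2% and 26% of all genes), and 0 and 2 at 1000 µM (11.5% and 18.3%). The medians of these 6 genes, 0.02, 0.05, -0.09 and -0.11, stood beside -0.03, -0.03, -0.07 and -0.04 for all genes. The defining markers Lrat and Pdgfrb had mean signals of 47.8 and 85.4, under the low-signal limit of 234. The sum of 9 hepatocyte markers was 379782 to 530466, 357931 to 411716 and 305876 to 420722 at 24 h, and 369736 to 425578, 312378 to 352849 and 299717 to 346092 at 48 h, in the same order. Kupffer cell and leukocyte markers (9 of 10 on the array) summed to 20139 to 28219 over all groups, endothelial markers (6 of 7) to 713 to 1859 and cholangiocyte markers (3 of 4) to 9854 to 15408. Cd14 (mean signal 14109) and Lyz2 (7611) made up most of the Kupffer cell and leukocyte sum. Ptprc (134), Cd163 (113) and Adgre1 (57.7) of that list were under the limit. Epcam (11378) made up most of the cholangiocyte sum, with Krt19 (194) and Krt7 (20.2) under the limit. These sums thus rest on few genes. The part of such cells in the fall of Apoa5 was not tested.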

How the data were processed

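The authors deposited 1 intensity signal per probe set and array on a linear scale. The submitters' processing notes name MAS5, without a version or settings. Signals were converted to log2 after adding 1, with no further scaling. Control probe sets (57) and the dimmest 40% of the others by mean log2 signal (limit 234) were left out, and the brightest probe set of each gene was kept. Of the 31042 non-control probe sets, 20826 had 1 gene in the platform table, 436 several and 9780 none. Of those with 1 gene, 20758 were matched to current rat symbols by gene identifier.

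Groups were compared with limma 3.58.1 in R 4.3.3, with 6 group means over 30 arrays, 24 residual degrees of freedom and a variance trend. There were 11 contrasts, and a gene is called changed at a Benjamini-Hochberg adjusted p under 0.05 over 10528 genes. On simulated arrays, 87% of genes changed by a log2 value of 1 and 57% of those changed by 0.5 were recovered. The text names all 9 members, the 4 genes of smallest p against vehicle in each list and up to 3 genes most like a member; Apool was named after its values were seen. Each well had 1 array, replicate numbers were used only to name wells, and the number of arrays limits precision. The members, the lists and all alternatives were chosen with earlier results of these data known. Alternatives covered scaling, pseudocount, filter, probe set choice, variance model, RNA quality, array order and leaving out arrays. Promoter sequences are from RefSeq (GRCr8).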

Additional observations from a re-analysis of the deposited data

Results flagged for a closer look

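Single arrays stood apart, by a Dixon gap over 0.71, in 6 of 54 groups of 5 signals, where chance alone marks about 1 in 20 independent groups. The groups are not independent, since members share arrays and the same array was marked for several of them. No excess over that share is read from the count. Each gap is given as its size over the range of the group on the log2 scale. In vehicle at 24 h, Apoa1 was highest in replicate 5 (78414 against 49325 to 55296, gap 0.754), and the other bright members were highest there too. At 1000 µM and 24 h, replicate 1 was lowest for Apoa1 (44027 against 55066 to 58307, gap 0.796), Apoa4 (43350 against 60842 to 66654, gap 0.788) and Apoc3 (56518 against 76404 to 83322, gap 0.777). Apoa2 at 250 µM and 24 h was highest in replicate 3 (31272 against 28996 to 29630, gap 0.714). Apoa5 in vehicle at 48 h was highest in replicate 4 (14926 against 12689 to 13053, gap 0.826), the vehicle array of low actin ratio.

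The effect of the compound on Apoa5 differed between the times by the test of that difference, -0.56 at 250 µM and -0.44 at 1000 µM on the log2 scale.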

How the results depend on the processing

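Results were recomputed under 30 alternatives that leave out 1 array each and 17 others. The 4 falls of Apoa5 against vehicle and the falls of Apoa2 and Apoc1 over time stayed called with the same sign under all of them. Of 76 values that were not called, 57 changed sign under some alternative, so no direction is read from them. Counts of changed members left 1.5 times the reported count as follows. With array medians centred, 1 gene was called at 1000 µM and 24 h (12.3% of all genes), 1 at 250 µM and 48 h (32.8%) and 0 in the interaction at 1000 µM (0.152%). That interaction also had 0 with robust variances and no trend, in a fit of the compared groups only, without the 4 vehicle arrays, and with each of vehicle replicates 1, 2, 3 and 5 alone, and 0 to 1 when single arrays were left out. The interaction at 250 µM had 2 with the actin ratio as covariate (Apob added), 2 with vehicle replicate 1 alone (Apoa2 added) and 0 with replicate 2 alone. With replicate 2 or 3 alone 1 member was called at 250 µM and 48 h, and with replicates 2, 3 or 5 alone 1 at 1000 µM and 48 h. Values that reversed were Apob over time with probe sets averaged (-0.0625 in vehicle, -0.154 at 1000 µM) and without the 4 vehicle arrays (-0.0671 in vehicle), and, with the level of the 100 brightest other probe sets as covariate, Apoa4 over time in vehicle (0.11), Apoe at 250 µM and 48 h (-0.0628) and Apoe over time at 1000 µM (0.0864). Quantile normalization added Apoc1 at both doses at 48 h, and leaving out vehicle replicate 1 at 48 h added Apom at 250 µM. The causes were not tested, except that leaving out arrays lowers the number of samples. Of 1128 list counts under alternatives, 39 left 1.5 times the reported count. No paired or blocked analysis was made. Replicate numbers were given in accession order, and the labels do not say whether wells of the same number belong together. The array numbers in the titles run in 5 sets that each hold 1 array of every group. At 48 h replicate 1 had the highest actin ratio of its group in vehicle (2.44), at 250 µM (1.39) and at 1000 µM (1.51). Whether values differed between such sets was not tested. Signals near the top of the range limit what can be seen of the 5 brightest members.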
